A study of Oryzias latipes with 6 samples.

Results

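PNPLA6, matched by its exact row name, is 1 gene of the 24365 in each of 14 tables that compare brain nuclei of 2 lineages of Japanese medaka (Oryzias latipes), a small laboratory fish. The control lineage was 3 adult male fish of the F1 generation, aged 6 months, whose parents had been kept for 21 days in solvent. The BaP lineage was 3 F1 males of the same age whose parents had spent the 21 days in water with benzo[a]pyrene (BaP) at 1 µg/L. BaP is a polycyclic aromatic hydrocarbon formed in combustion. All 6 fish were raised in clean water, and the labels name no strain or genetic modification. Whether BaP reached them as germ cells or in the egg was not measured here. Each whole brain gave 1 droplet-based 3′ single-nucleus library, and the authors' tables hold 1 comparison per cluster of nuclei, with the fish of a lineage pooled. PNPLA6 was chosen for its level and its lineage difference in these same tables, so both are described here and neither is tested.

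PNPLA6 encodes neuropathy target esterase, an enzyme of the endoplasmic reticulum that removes fatty acids from phosphatidylcholine and lysophosphatidylcholine and so yields glycerophosphocholine. In humans and hens, certain organophosphates that inhibit and age the enzyme cause a delayed degeneration of long axons, and inherited defects of human PNPLA6 cause spastic paraplegia and other disorders of nerve, retina and pituitary. In mice and fruit flies, loss of the enzyme damages neurons, and the fly protein is also needed in glia. These roles are background from other species and were not measured here.

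The numbers of nuclei and the levels below were worked out from the arithmetic of the authors' deposited tables, under assumptions given with the processing. They gave 7512 nuclei, of which 2429 were control-lineage and 5083 BaP-lineage nuclei. The target was 8000 nuclei for each library, and why far fewer were found, and fewer in the control lineage, was not tested. Cluster means were 684 to 1905 UMIs per nucleus (unique molecular identifiers, 1 for each cDNA molecule tagged). Clusters 0 to 5, 10 and 11 are taken as neuronal, and clusters 6 (myelin genes), 7 (keratins), 8 (blood and endothelium), 9 (radial glia), 12 (olig1) and 13 (fibroblast and plasma protein genes) as non-neuronal. The summed level of 20 pan-neuronal markers such as snap25a was 71.7 to 219 UMIs per 10000 in the 8 neuronal clusters and 35.5 to 50.1 in the 6 others. With both lineages together, the classes did not overlap in that sum. Cluster 11, at 71.7, lay below the median over the 14 clusters (78.1), however. In the control lineage alone the gap was narrow, with 53.8 in cluster 3 and 51.9 in cluster 9. Neuronal transcripts were thus well above 0 in every non-neuronal cluster, and whether these came from free RNA or from admixed nuclei was not tested.

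By UMI count, PNPLA6 was one of the most abundant transcripts of these nuclei. With both lineages together it made up 14.1 UMIs per 10000 in cluster 7, its lowest, and 70.6 in cluster 6, its highest, with a median of 26.9 over the clusters. These levels are UMI counts of a 3′ library and were not divided by gene length. Whether priming inside unspliced transcripts adds UMIs was not tested. By level, PNPLA6 ranked between 12 (cluster 6) and 41 (cluster 12) among the 24365 genes, and in clusters 0 to 5 it ranked 15 to 17. Without the 13 protein genes of the mitochondrial genome, it ranked 5 in the myelin-gene cluster 6 and 7 in clusters 0 and 3. About 29326 PNPLA6 UMIs were recovered in all. Where on the gene these reads lie was not analysed here. No cluster is known to lack the gene, so the share of its level that free RNA gives was not tested.

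In control-lineage nuclei, PNPLA6 was highest in the myelin-gene cluster 6, at 80.4 UMIs per 10000 (95% Poisson interval 75.3 to 85.8), and in the pallial-like glutamatergic cluster 3, at 77.3 (71.4 to 83.5). These intervals overlapped, and they cover counting error only, not the spread between fish or nuclei. The control-lineage levels of all genes summed to 11705 in cluster 6 and 8904 in cluster 3, rather than to 10000. Which of these clusters is higher therefore depends on the scaling. The orders given here and for the BaP lineage were not rerun on levels scaled to these sums. Cluster 0, of shallow mixed neurons, followed at 54.3 (52.4 to 56.2), then the peptidergic cluster 1 at 42.5 (40.8 to 44.3) and the thalamic or tectal-like cluster 2 at 36.6 (35.1 to 38.1), each apart from the one above it. Clusters 8, 4, 10, 7, 12 and 5 lay between 35.7 and 27.1, and no neighbours in that run, from cluster 2 down to the radial glia of cluster 9 at 22.6 (19.7 to 25.7), were apart by their intervals. The lowest levels, apart from all those above, were 11.3 (8.37 to 14.9) in the Purkinje or eurydendroid-like cluster 11 and 10.4 (6.25 to 16.2) in cluster 13, on 50 and 19 recovered UMIs.

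In BaP-lineage nuclei the order differed. Cluster 6 was again highest, at 66.3 UMIs per 10000 (63.2 to 69.5), and was followed by cluster 4, the pvalb7 and bnc2 neurons, at 45.4 (43.6 to 47.3). Cluster 3 had 31.5 (30.3 to 32.7) and cluster 5, the cerebellar granule neuron-like nuclei, had 30.7 (29.3 to 32.2), with overlapping intervals. Clusters 13, 10, 1 and 11 ran from 29.2 down to 22.4. Clusters 2, 0 and 12 lay at 18.3, 17.0 and 16.8, with overlap between neighbours, and clusters 8 and 9 at 14.8 and 13.4. The keratin-led cluster 7 was lowest, at 6.35 (5.56 to 7.20), and its interval lay below that of every other cluster. The levels spanned a 7.7-fold range over the clusters in the control lineage and a 10.4-fold range in the BaP lineage.

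**Figure D1:**
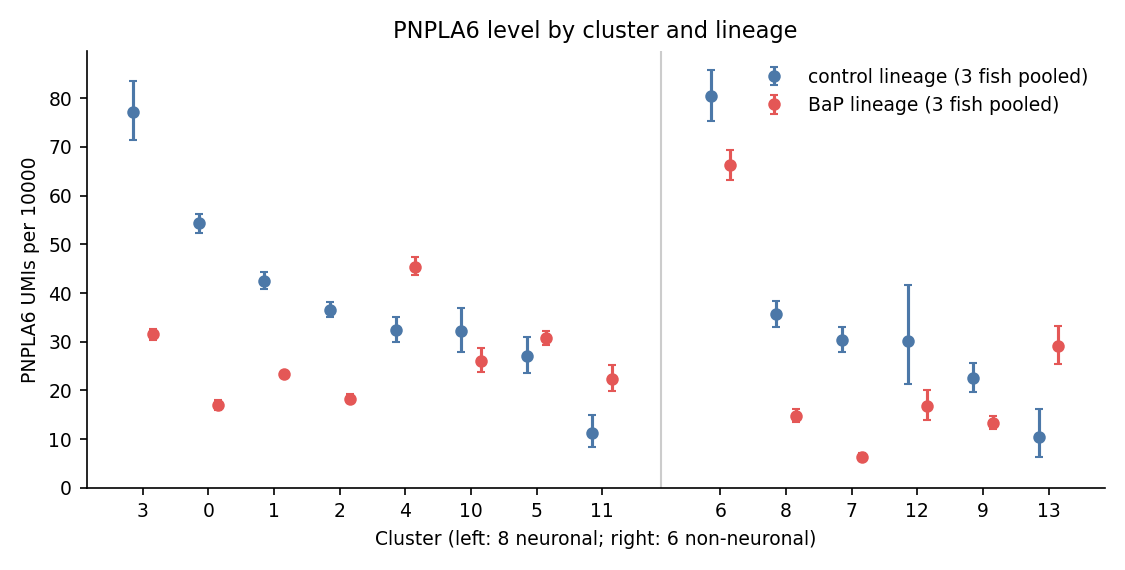
Recovered PNPLA6 level in UMIs per 10000 (vertical axis) in each of the 14 clusters, with neuronal clusters to the left of the line and non-neuronal ones to the right. Points are the 3 pooled fish of a lineage and bars are 95% Poisson intervals, counting error only. Control-lineage points lie above BaP-lineage points in 10 clusters and below them in clusters 4, 5, 11 and 13.

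In the authors' deposited tables PNPLA6 had a value below 0 (lower in the BaP lineage) in 10 of 14 clusters, and in 6 of them (0, 1, 2, 3, 7 and 8) the authors' adjusted p was under 0.05, the threshold for a call. It was called higher in none. Over all pairs of a gene and a cluster, 0.133% were called lower in the authors' deposited tables. The share called lower was 0.222% in cluster 0, 0.456% in cluster 1, 0.575% in cluster 2, 0.041% in cluster 3, 0.144% in cluster 7 and 0.0739% in cluster 8. It was 0.0903% in clusters 4 and 5, 0.0616% in clusters 6 and 10, 0.0451% in cluster 9 and 0% in clusters 11, 12 and 13. Because PNPLA6 was selected on these calls, nothing is read from its count. As far as their arithmetic shows, the authors' p-values count each nucleus as a replicate, so they say nothing of the spread between the 3 fish of a lineage, and the clusters all come from the same 6 fish.

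Among neuronal clusters, cluster 0 held an estimated 3.53 PNPLA6 UMIs per control-lineage nucleus and 1.23 per BaP-lineage nucleus, a level 3.19 times higher in the control lineage. The authors' deposited table gives a log2 fold change of -1.57 there (adjusted p 2.62e-72), the smallest p of any gene in that table. In cluster 3 the values were 8.91 and 4.27 UMIs per nucleus, and the authors' deposited table gives -1.27 (adjusted p 1.36e-11), again the smallest p of its table. That cluster rests on 71 control-lineage nuclei against 638. In cluster 1 the authors' deposited table gives -0.85 (adjusted p 2.71e-17), with 7.36 and 4.18 UMIs per nucleus. In cluster 2 the authors' deposited table gives -0.97 (adjusted p 7.79e-14), with 7.10 and 3.44 UMIs per nucleus. All of these 4 clusters hold more PNPLA6 per UMI in the control lineage, with counting intervals that do not meet.

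The other 4 neuronal clusters were not called. In cluster 10, the tcf7l2 glutamatergic neurons, PNPLA6 was at 32.1 UMIs per 10000 in the control lineage and 26.1 in the BaP lineage, and the authors' deposited table gives -0.29 (adjusted p 1). In cluster 4 it was at 32.4 and 45.4, and the authors' deposited table gives 0.47 (adjusted p 0.215). In cluster 5 it was at 27.1 and 30.7, where the authors' deposited table gives 0.17 (adjusted p 1). In cluster 11 it was at 11.3 and 22.4, with 0.94 in the authors' deposited table (adjusted p 1), on 32 control-lineage nuclei. The values of clusters 4, 5 and 11 are thus above 0, and none of them passed the threshold.

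Among non-neuronal clusters, the keratin-led cluster 7 had the lowest value of all 14, at -2.11 in the authors' deposited table (adjusted p 4.21e-23), the smallest p of its table. There PNPLA6 fell from 4.39 UMIs per control-lineage nucleus to 0.886, and from rank 21 to rank 112 by level. In the blood and endothelial cluster 8 the authors' deposited table gives -1.22 (adjusted p 1.85e-06), with 4.94 and 2.04 UMIs per nucleus. Neither of these clusters is neural by its leading genes, so the calls were not confined to neuronal clusters. In the myelin-gene cluster 6, where PNPLA6 was most abundant, the levels were 80.4 and 66.3 UMIs per 10000 and the authors' deposited table gives -0.27 (adjusted p 1). Radial glia (cluster 9) had -0.71 (adjusted p 0.831) and cluster 12 had -0.79 (adjusted p 1) in the authors' deposited tables. Cluster 13 had 1.41 (adjusted p 1) in the authors' deposited table, on 14 control-lineage nuclei and 19 recovered control UMIs.

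With counts and UMIs added up over a class, PNPLA6 stood at 43.0 UMIs per 10000 in neuronal control-lineage nuclei and 26.0 in neuronal BaP-lineage nuclei. In non-neuronal nuclei it stood at 39.5 and 22.9. The log2 ratio of BaP over control was -0.72 in neuronal clusters (95% exact conditional interval -0.76 to -0.69, counting error only) and -0.79 in non-neuronal ones (-0.86 to -0.71), and these intervals overlapped. The neuronal sum depends on cluster 0, which holds 37.5% of control-lineage and 16.6% of BaP-lineage nuclei: without it the ratio was -0.52. Calls fell on 4 of 8 neuronal and 2 of 6 non-neuronal clusters. The deposited log2 fold changes ran from -1.57 to 0.94 (median -0.57) in neuronal clusters and from -2.11 to 1.41 (median -0.75) in non-neuronal clusters of the authors' deposited tables, so the range within each class was far wider than the gap between classes.

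In part of the clusters, most abundant genes were shifted together, which moves the point of reference. Among the 100 most abundant genes of a cluster, those other than PNPLA6 and the mitochondrially encoded ones (89 or 90 genes) had medians from -0.07 in cluster 7 to 0.85 in cluster 11 of the authors' deposited tables. Against that median, PNPLA6 was lower by -1.63, -0.99, -1.03, -1.91, -2.04 and -1.33 in the called clusters 0, 1, 2, 3, 7 and 8 of the authors' deposited tables. In each of these 6 clusters of the authors' deposited tables, 0 of the 89 or 90 genes had a lower value than PNPLA6. With the mitochondrially encoded genes kept among the 100, PNPLA6 had rank 10 from the lowest in cluster 1 and rank 7 in cluster 2. In clusters 4, 5 and 11 the distance was 0.02, -0.05 and 0.09 in the authors' deposited tables, so that PNPLA6 sat in the middle of the abundant genes there. In clusters 6, 9, 10 and 12 it was -0.64, -0.92, -0.72 and -1.20, and in cluster 13 it was 1.34, in the authors' deposited tables. This reference was chosen after the values were seen.

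**Figure D2:**
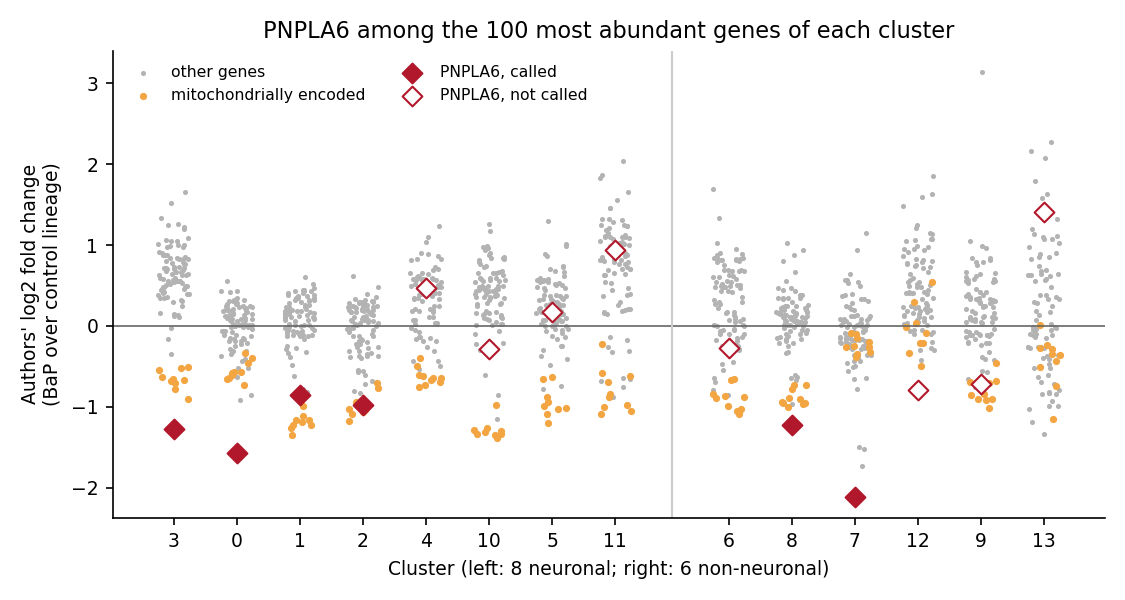
Log2 fold change of BaP over control lineage in the authors' deposited tables (vertical axis) for the 100 most abundant genes of each cluster. Diamonds are PNPLA6 (filled where called, open where not), orange dots are mitochondrially encoded genes and grey dots are the others, spread sideways for view. PNPLA6 has the lowest value of the 100 in clusters 0, 3, 7, 8 and 12, and lies within the grey dots in clusters 4, 5 and 11.

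Transcripts of the mitochondrial genome were also lower in the BaP lineage, and their profile over clusters was another one. In the authors' deposited tables each of the 13 was called lower in some cluster and never higher. Their median log2 fold change was nearest 0 in cluster 12 (-0.01), then in cluster 7 (-0.20), and lowest in cluster 10 (-1.29) in the authors' deposited tables. PNPLA6 had -0.795, -2.11 and -0.29 in these clusters. Over the 14 clusters, which share the same fish and libraries, the correlation of PNPLA6 with that median was -0.08 (Pearson's r, n = 14, a description). PNPLA6 was the only gene called lower in all of clusters 0, 1, 2, 3, 7 and 8, the set its own calls define. In 5 of these 6, the mitochondrial COX1, COX3, CYTB, ATP6, ND2 and ND4, the Rap exchange factor gene RAPGEF5 and ENSORLG00000026256 were called lower in the authors' deposited tables. Over all 14 clusters, these mitochondrial genes were each called lower in 10, more than PNPLA6, RAPGEF5 and ENSORLG00000026256 with 6 each. Against mean UMIs per nucleus and the percentage of BaP-lineage nuclei, r was 0.19 and 0.34 (n = 14 each). Against the median log2 fold change of all detected genes it was 0.62 (n = 14). That median was 0.14 in cluster 11 and 0.19 in cluster 13, the values of PNPLA2 and pnpla3 there on 1 recovered UMI. It thus reflects genes with hardly any UMIs, and no shift of genes at large is read from this r.

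Markers of other cell types were set beside PNPLA6 outside the clusters they define. Erythrocyte markers (4 genes in the tables, hemoglobin hbbe2 and the heme synthesis enzyme gene alas2 among them) summed to 4.77 to 75.5 UMIs per 10000 in the 13 clusters other than cluster 8, where they reached 509. Their log2 ratio of BaP over control was -1.14, -1.02, -0.72, -0.85 and -1.82 in clusters 0, 1, 2, 3 and 7, where PNPLA6, with prior counts taken out in the same way, had -1.67, -0.87, -0.998, -1.29 and -2.26. It was 0.01 in cluster 5, 1.52 in cluster 11 and 1.05 in cluster 13, where PNPLA6 had 0.18, 0.99 and 1.48. The values were further apart in cluster 12 (-3.16 against -0.84), cluster 10 (-1.68 against -0.30) and cluster 4 (-0.35 against 0.49). In cluster 9 they were -0.41 and -0.76. The erythrocyte ratios rest on few UMIs in cluster 11 (13 control, 108 BaP) and cluster 12 (24 control, 16 BaP). Over these 13 clusters r was 0.70, and 0.63 without cluster 13. In cluster 8 itself the erythrocyte sum was higher in the BaP lineage (0.24) while PNPLA6 was called lower (-1.27), and in cluster 6 they had 0.58 and -0.28.

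The other 8 marker lists had r between -0.56 and 0.58 with PNPLA6, each over 6 to 13 clusters. The highest, for pan-neuronal markers in the 6 non-neuronal clusters, became -0.49 without cluster 13. The lowest, for oligodendrocyte progenitor markers, became -0.62 without it, a size like that of the erythrocyte markers. The progenitor sums hold far fewer UMIs, however. Outside their own cluster they ranged from 3 control-lineage UMIs against 1 BaP-lineage UMI (cluster 11) to 37 against 109 (cluster 6). The erythrocyte sums also rest on few UMIs in some clusters, such as 13 against 108 in cluster 11. The erythrocyte r was the highest of all the lists compared, and none of these r was tested. In the called clusters 7 and 8 the pan-neuronal sum was 32.7 and 48.9 UMIs per 10000 in the control lineage and 36.8 and 48.8 in the BaP lineage, so it did not fall with PNPLA6 there. In clusters 6 and 9 its log2 ratio was -0.45 and -0.31, below 0 like that of PNPLA6 (-0.28 and -0.76). In clusters 12 and 13 it was 0.48 and 1.29, where PNPLA6 had -0.84 and 1.48. The part of blood or free RNA in the PNPLA6 difference was not tested.

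**Figure D3:**
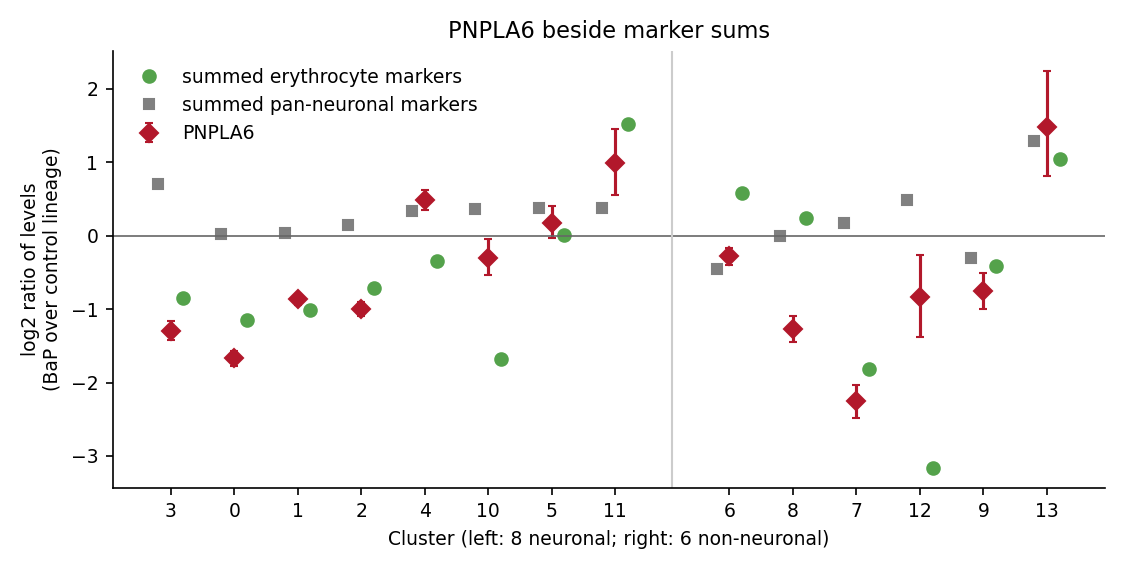
Log2 ratio of BaP over control lineage (vertical axis) in each cluster for PNPLA6 (diamonds, with 95% exact conditional intervals for counting error), the summed erythrocyte markers (circles) and the summed pan-neuronal markers (squares), all with prior counts taken out. Circles lie on the same side of 0 as diamonds in clusters 0 to 3, 7 and 9 to 13, also in cluster 5 near 0, and on the other side in clusters 4, 6 and 8.

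None of the other genes of phosphatidylcholine turnover was called lower in any cluster, but over all genes only 0.133% of pairs of a gene and a cluster were. Nothing is read from that count or from the list counts below. Among the 117 genes compared here and below, no median level over the clusters was above 3.28 UMIs per 10000, which limits calls. Of the patatin-like phospholipase family, to which PNPLA6 belongs, PNPLA7 (a close relative that acts on lysophosphatidylcholine in mammals), PNPLA2 (adipose triglyceride lipase) and pnpla3 (a lipid droplet protein) were in the tables. Their median levels were 0.102, 0.0305 and 0.142 UMIs per 10000 over the clusters, against 26.9 for PNPLA6, and they had 78, 49 and 152 recovered UMIs in all. None was called in any cluster, and their log2 fold changes ran from -0.35 for PNPLA2 in cluster 7 to 0.65 for PNPLA7 in cluster 13 of the authors' deposited tables. So few counts limit what could be called for them.

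Around the enzyme's reaction, 6 lists were fixed, of which the patatin family is one. They take in relatives and linked steps, and the activity of each member was not checked. Of 18 genes listed under hydrolysis of phosphatidylcholine and its lyso forms (such as lypla1 and lypla2), 0 were called lower and 0 higher, and 17 were detected. Of 14 genes of glycerophosphocholine breakdown and choline transport, 1 was called higher: the choline transporter-like gene SLC44A1 in the myelin-gene cluster 6, with 1.05 in the authors' deposited table (adjusted p 0.00079). There it was also most abundant, at 5.80 UMIs per 10000. The glycerophosphocholine phosphodiesterase gene gpcpd1 had its smallest adjusted p, 0.669, in cluster 2 of the authors' deposited tables. Of 22 genes listed under phosphatidylcholine synthesis, 0 were called in either direction. The choline kinase gene chka was among them (in the authors' deposited table of cluster 4, 0.69 with an adjusted p of 0.271).

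In the neighbouring lists no gene was called either. Of 12 other serine hydrolases that organophosphates can inhibit, 0 were called, and the acetylcholinesterase gene ache ran from -0.52 in cluster 9 to 0.43 in cluster 13 of the authors' deposited tables. Of 52 hereditary spastic paraplegia genes, 0 were called, and the axonal kinesin genes kif5aa and KIF1A, with median levels of 3.28 and 3.04 UMIs per 10000, had smallest adjusted p of 1 and 0.0708 in the authors' deposited tables. In all, 1 of 1638 pairs of a gene and a cluster from the 117 genes other than PNPLA6 was called (0.0611%), against 0.116% higher and 0.133% lower over all pairs of the authors' deposited tables. List medians lay between -0.30 and 0.62 and those of all detected genes between -0.01 and 0.19 in the authors' deposited tables. The highest of the latter, in cluster 13, is the value of a gene with 1 recovered UMI, so these medians are a poor reference. The highest median level among the 117 genes was that of kif5aa. The highest level in any one cluster was 10.9 UMIs per 10000, of the carboxylesterase gene ces3 in cluster 13, where PNPLA6 was at 25.6 with both lineages together and at 10.4 in the control lineage.

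Genes whose level followed PNPLA6 over the clusters were sought among 1962 symbols detected in all 14 clusters. The 5 highest correlations of log2 level were those of MAP1A (r = 0.89), mapk3 (0.88), atp8a1 (0.87), AATK.1 (0.85) and dpysl5b (0.84), each over 14 clusters, against a median of 0.14 for the genes compared. MAP1A encodes a microtubule-associated protein, mapk3 a MAP kinase and atp8a1 a phospholipid flippase. All 5 were highest in the myelin-gene cluster 6, as PNPLA6 was, and MAP1A ran from 2.05 UMIs per 10000 in cluster 7 to 13.8 there. The likeness of these 5 genes is fixed by their choice from the 1962, and their shared peak is part of it. Their lineage calls were as follows: in the authors' deposited tables MAP1A was called higher in cluster 3 (1.06), atp8a1 in cluster 6 (0.90) and AATK.1 in clusters 3 and 6 (1.11 and 0.84), while dpysl5b was called lower in cluster 2 (-0.50), as PNPLA6 was, and mapk3 was not called.

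**Figure D4:**
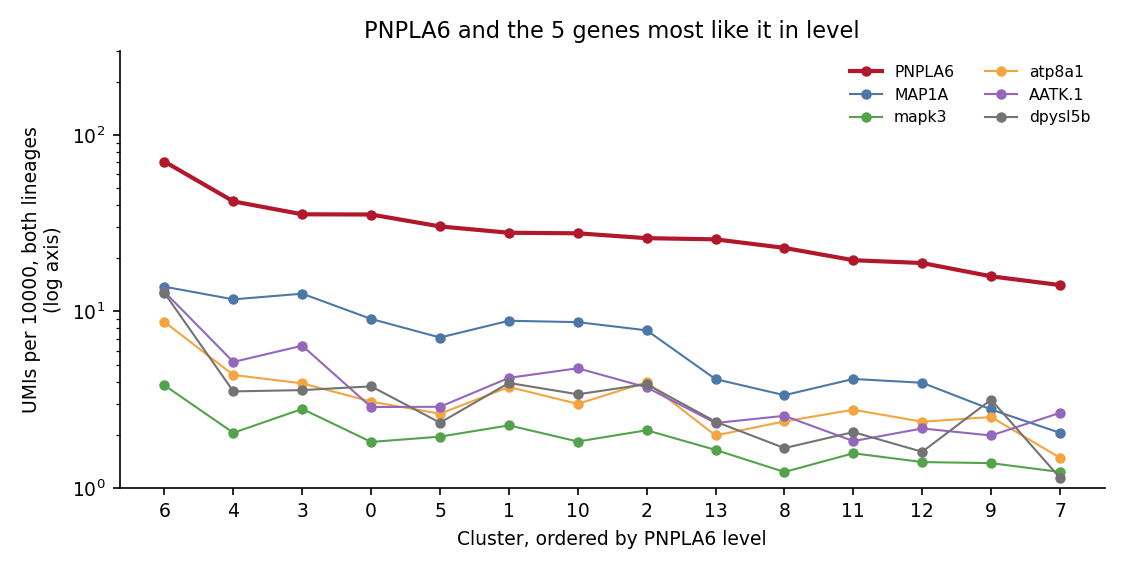
Level in UMIs per 10000 with both lineages together (vertical log axis) of PNPLA6 and of the 5 genes most like it in level, over the 14 clusters in the order of PNPLA6. Each point is 1 cluster. All 6 genes are highest in cluster 6, where PNPLA6 reaches 70.6, MAP1A 13.8 and mapk3 3.81.

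By the log2 fold change in place of the level, genes among the closest of the 1962 were NTRK3 (r = 0.84), ZNF512B (0.84), ptmab (0.84) and ELOB (0.84), against a median of 0.20. NTRK3 encodes a neurotrophin receptor. None of these 4 was called lower anywhere, while the authors' deposited tables had NTRK3 called higher in cluster 2 (0.36), where PNPLA6 was called lower, and in cluster 4 (0.83). NTRK3 ran from 0.10 in cluster 7 to 2.27 in cluster 13 of the authors' deposited tables, and ptmab from -0.45 to 1.27 in the same clusters. Their Spearman's rho with PNPLA6 was 0.73 to 0.84, and the likeness is fixed by their choice from the 1962 genes. All 4, like PNPLA6, had their highest value in cluster 13. In that cluster ELOB had 3 recovered UMIs, ptmab 9, ZNF512B 18 and NTRK3 67, and no r without it is given here. ELOB had as few as 1 recovered UMI in a cluster. The correlations of ELOB, ptmab and ZNF512B are thus weak ground.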

How the data were processed

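Single-nucleus 3′ libraries of 6 brains were processed with Cell Ranger (version not given in the sources used here), per the submitters' processing notes. Libraries were aggregated and lineages compared within clusters, per the series design text. The authors deposited 14 tables of 24365 genes with log2 fold change, log2 mean CPM and p-value columns, per the file headers, and no column of a single fish. The fold change was read as BaP over control from the group coding in the table names. For filters, clustering, the test and the treatment of doublets and free RNA, nothing is stated in these sources, and without values per nucleus doublets were not looked for.

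Deposited adjusted p-values equal Benjamini-Hochberg values to within 4e-15. Undetected genes share a floor of the deposited log2 mean CPM, which gives UMIs per nucleus for a prior count of 2. Genes with 1 count give the nuclei per lineage, for a prior count of 0.125 in the deposited log2 fold change. Levels per lineage followed with both prior counts taken out. No source states these priors. The levels of all genes summed to 8904 to 12452 per 10000 UMIs rather than to 10000, so absolute levels are approximate. The arithmetic was tested on simulated data modelled on part of the clusters. Those data were built with the same prior counts, so they could not check the priors themselves.

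PNPLA6 and all lists were chosen with earlier results of these data known. Named genes were PNPLA6, its family, up to 4 called members of each list, and 5 genes by each likeness, which needed at least 10 recovered UMIs in each neuronal cluster; other genes named were chosen after their values were seen. Of the genes this rule takes, 1 is left out here. Symbols of lists and markers were compared in lower case, also with the suffix a or b. Per-fish fits were not run. No coordinates or sequences of PNPLA6 are given, as none could be matched in the reference used here. Python 3.11 with numpy, pandas and scipy was used.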

Additional observations from a re-analysis of the deposited data

How the results depend on the processing

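The count of 6 clusters called lower stayed at 6 with an adjusted p under 0.01 or under 0.1, with adjustment over detected genes and with Bonferroni's, and was 4 (clusters 0, 3, 7 and 8) once a change of 1 or more on the log2 scale was also asked for. No value of PNPLA6 in a cluster changed sign under any of the alternatives run. Per UMI of nuclear genes, with prior counts taken out, the log2 ratio moved beyond counting error to -1.80, -1.02, -1.13, -1.56, 0.34, -0.51 and -1.51 in clusters 0, 1, 2, 3, 4, 6 and 8. With each lineage scaled to the summed level of all genes, a choice made after seeing the data, it moved to -0.75, -0.80 and -1.67 in clusters 1, 2 and 3. The sum over neuronal clusters (-0.72) became -0.55 with equal weight of clusters, -0.89 per UMI of nuclear genes and -0.52 without cluster 0. The sum over non-neuronal clusters (-0.79) became -0.51 with equal weight and -0.97 per UMI of nuclear genes. A prior count of 1 in place of 2 left all 28 levels within their intervals. No paired analysis was possible because the tables hold no values per fish, and for the same reason no fish could be left out in turn. In clusters 11, 12 and 13, with 14 to 32 control-lineage nuclei, the small number of nuclei limits what could be called.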
